A study of Mus musculus with 8 samples.

Results

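The co-stimulatory and checkpoint ligands described here are 9 genes, Cd40, Cd80, Cd83, Cd86, Cd274, Pdcd1lg2, Icosl, Slamf1 and Slamf7, chosen by name. They are 9 of the 20846 named genes, and of the 36947 genes and transcripts, whose mRNA could be tested in peritoneal macrophages. The cells came from C57BL/6 mice and were either LysMCre-fur(fl/fl) (FURIN KO, called KO) or from WT littermates. In the KO, Cre recombinase is driven from the lysozyme gene Lyz2, which is active in myeloid cells, so the floxed gene of the proprotein convertase FURIN is cut out in those cells. Adherent cells were left unstimulated (0 h) or were treated with LPS, a bacterial cell wall component, at 1 μg/ml for 1, 4 or 24 h. The ages of the mice used for the arrays, and whether mice were pooled, are not given in the sources used here. Each of the 4 times had 2 arrays, from biological replicates 1 and 2, and each array carried KO and WT RNA in different dyes, so that 8 arrays gave 16 channels. KO RNA was in Cy5 in replicate 1 and in Cy3 in replicate 2, hence the replicate number and the dye orientation cannot be told apart.

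A T cell that meets its antigen on a macrophage needs further contacts to become active. CD80 and CD86 give a co-stimulatory signal through CD28 and an inhibitory one through CTLA-4, ICOSL acts on ICOS, and CD40 is the receptor by which the T cell, through CD40 ligand, activates the presenting cell. CD274 (PD-L1) and PDCD1LG2 (PD-L2) bind the inhibitory receptor PD-1. CD83 is an immunoglobulin family protein of mature dendritic cells that keeps MHC class II and CD86 on the cell surface, and SLAMF1 and SLAMF7 are receptors that bind their own kind on a neighbouring cell. LPS is known to change the expression of many of these molecules in antigen presenting cells.

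Among the members, Cd274, Slamf1 and Slamf7 followed almost the same course over the 16 channels, and Icosl rose earlier, so the sequences upstream of these 4 genes are shown. The RefSeq promoter table (GRCm38.p6) lists 6 of the 9 members. Cd40, Cd83 and Cd86 have no entry. Each line gives the 250 bases before the start of the transcript, 5′ to 3′ on the gene's strand. Capitals mark matches to any of 4 motifs, searched on both strands: an NF-kB type GGNNNTTCC, a GAS type TTCNNNGAA, an ISRE core GAAANNGAA and an AP-1 type TGANTCA.
Cd274, chr19:29367188-29367437, + strand: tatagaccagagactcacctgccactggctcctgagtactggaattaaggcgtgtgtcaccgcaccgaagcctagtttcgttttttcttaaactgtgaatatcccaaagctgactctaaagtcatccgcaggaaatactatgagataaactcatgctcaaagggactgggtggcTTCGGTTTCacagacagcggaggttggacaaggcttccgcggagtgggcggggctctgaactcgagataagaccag
Slamf1, chr1:171766882-171767131, + strand: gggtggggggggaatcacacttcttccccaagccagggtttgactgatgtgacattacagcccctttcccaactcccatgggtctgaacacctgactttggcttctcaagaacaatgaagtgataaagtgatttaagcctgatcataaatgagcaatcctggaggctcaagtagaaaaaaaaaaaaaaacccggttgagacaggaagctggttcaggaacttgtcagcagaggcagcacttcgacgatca
Slamf7, chr1:171649000-171649249, - strand: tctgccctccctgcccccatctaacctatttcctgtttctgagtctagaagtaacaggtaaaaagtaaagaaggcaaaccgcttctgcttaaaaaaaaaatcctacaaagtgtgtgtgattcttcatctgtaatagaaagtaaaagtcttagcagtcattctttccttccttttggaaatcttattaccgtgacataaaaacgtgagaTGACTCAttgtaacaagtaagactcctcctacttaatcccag
Icosl, chr10:78069118-78069367, + strand: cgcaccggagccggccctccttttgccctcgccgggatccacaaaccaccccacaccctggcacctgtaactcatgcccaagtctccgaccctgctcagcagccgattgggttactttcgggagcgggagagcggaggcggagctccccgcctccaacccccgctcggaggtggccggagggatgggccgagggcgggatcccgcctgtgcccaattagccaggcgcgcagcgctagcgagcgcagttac

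The Slamf7 sequence held an AP-1 type match, TGACTCA, from 42 to 36 bases before the start. The Cd80 sequence, not printed, held TGATTCA at the same distance and an NF-kB type match, GGAACCACC on this strand, from 209 to 201 bases before the start. In the Cd274 sequence the ISRE core matched on the other strand, as TTCGGTTTC, from 76 to 68 bases before the start. The other 3 listed members, Pdcd1lg2, Icosl and Slamf1, held none of the 4 motifs in this window. Of 32851 promoters of the same length in the table, 6.75% held the AP-1 type motif, 15.7% the NF-kB type, 7.02% the GAS type and 7.13% the ISRE core. With a further G before the NF-kB type or a further A after the ISRE core, held by 4.65% and 2.98%, 0 of the 6 listed members matched. A match describes letters in this window and is not a measured binding site.

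The cells carried the markers of their label, with 9 of 9 measured macrophage markers well above background in all 16 channels. The 12 measured B cell markers were also well above background in every channel, and of 9 dendritic cell markers Flt3, Zbtb46, Ccr7, Itgax, Batf3 and Siglech were so too, with Cd209a in 12 channels, Clec9a in 5 and Xcr1 in 0 of the 16. Furin, the deleted gene, had a log2 KO/WT ratio of -0.59 and -0.85 without LPS, of -0.56 and -0.55 after 1 h and of -0.59 and -0.69 after 24 h. On the 4 h arrays the ratios were 0.00023 and 0.33. The label KO is therefore not borne out by Furin on the 4 h arrays, whose RNA is called "labelled KO" below (the KO values given for 4 h, and changes from 4 h, rest on it), although Lyz2, which carries the Cre, read lower than in WT on 8 of 8 arrays (log2 ratio from -1.85 to -0.74). These are bulk samples, in which fewer cells of a type and less RNA per cell cannot be told apart.

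All 9 members were well above background in all 16 channels and none was saturated. Levels are normalized log2 intensities of the brightest probe of a gene and can be compared between samples but not between genes. A change was called when the p of limma's test, after Benjamini-Hochberg adjustment across every feature tested, was below 0.05.

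**Figure D1:**
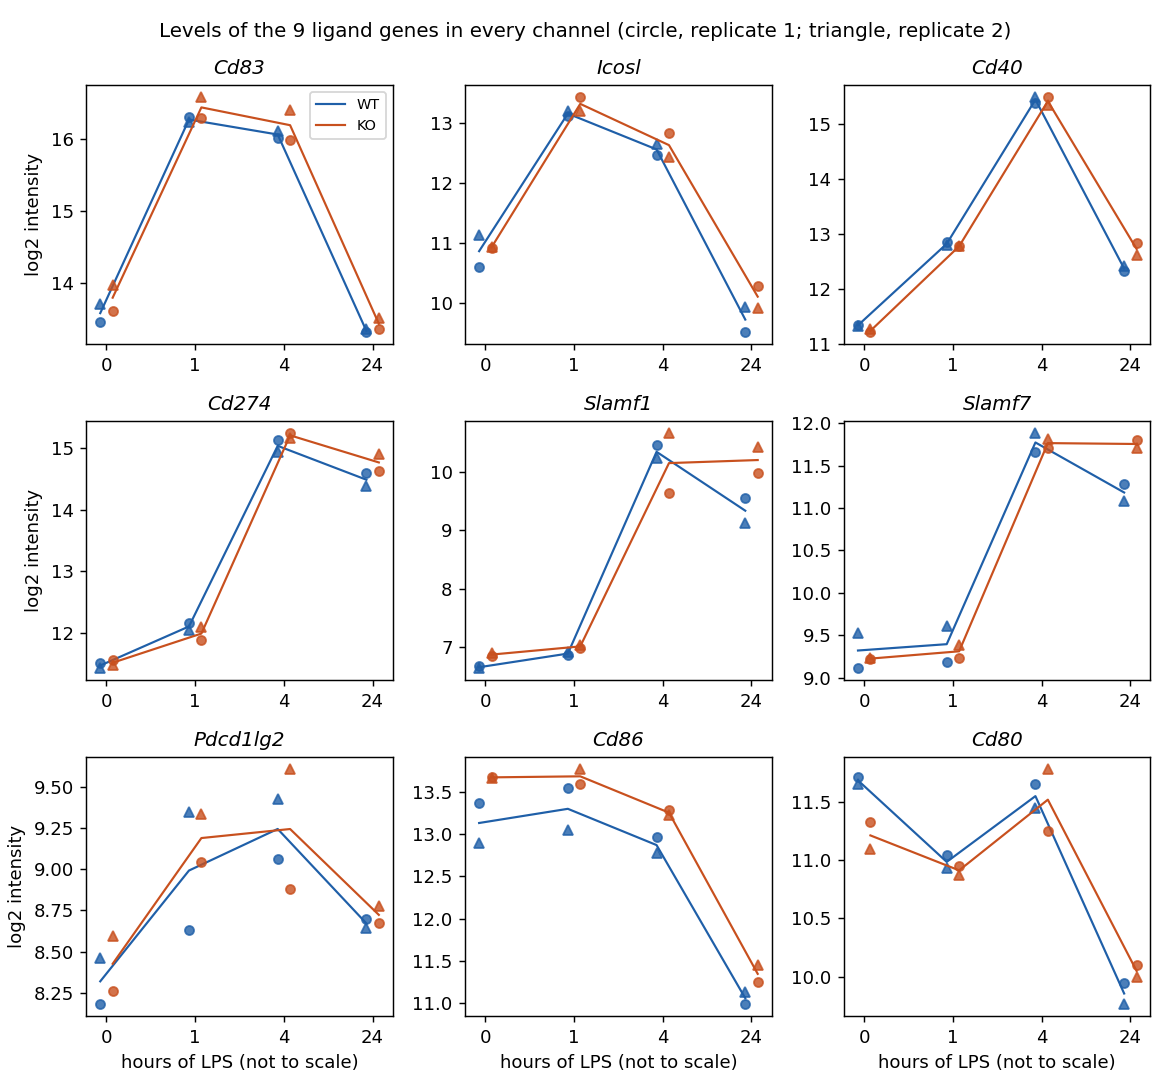
Normalized log2 intensity (vertical axis) of each member at 0, 1, 4 and 24 h of LPS (horizontal axis, not to scale), with 1 point per channel and lines through the means of the 2 replicates of WT and KO. Cd83 and Icosl were highest at 1 h, Cd40 at 4 h, Cd274, Slamf1 and Slamf7 were high at 4 and 24 h, and Cd86 and the brighter Cd80 probe were lowest at 24 h.

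Most of the members changed after LPS in both genotypes, and most of the calls were increases. No culture without LPS was measured at 1, 4 or 24 h, so LPS and time in culture cannot be told apart. After 1 h, 4 of 9 members were called higher in WT cells (Cd83, Icosl, Cd40 and Cd274), beside 3.35% of all genes and transcripts tested, and the same 4 in KO cells, beside 3.08%. In WT cells 1 member, Cd80, was called lower at 1 h, beside 5.15%, and in KO cells none, beside 4.45%. After 4 h, 7 of 9 were called higher in WT cells, beside 15.5%, and the same 7 in cells labelled KO, beside 16.2%. None was called lower at 4 h in either genotype, where 19.2% of all features were called lower in WT and 19.7% in those labelled KO.

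After 24 h, Cd40, Cd274, Slamf1 and Slamf7 were still called higher in both genotypes, where 13.5% of all features were called higher in WT cells and 12.8% in KO cells. Cd80, Cd86 and Icosl were called lower than at 0 h in both, beside 16.8% in WT cells and 15.9% in KO cells. Between 4 and 24 h, 8 of 9 members were called lower in WT cells, beside 14.6%, and 6 of 9 in KO cells, beside 15.1%. None was called higher from 4 to 24 h, where 15.1% of all features rose in WT cells and 15.7% in KO cells. The median member changed by 0.64, 2.45 and 0.35 (log2) at 1, 4 and 24 h in WT cells and by 0.47, 2.41 and 0.30 in KO cells, while the median of all features stayed between -0.02 and 0.002 in these comparisons.

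**Figure D2:**
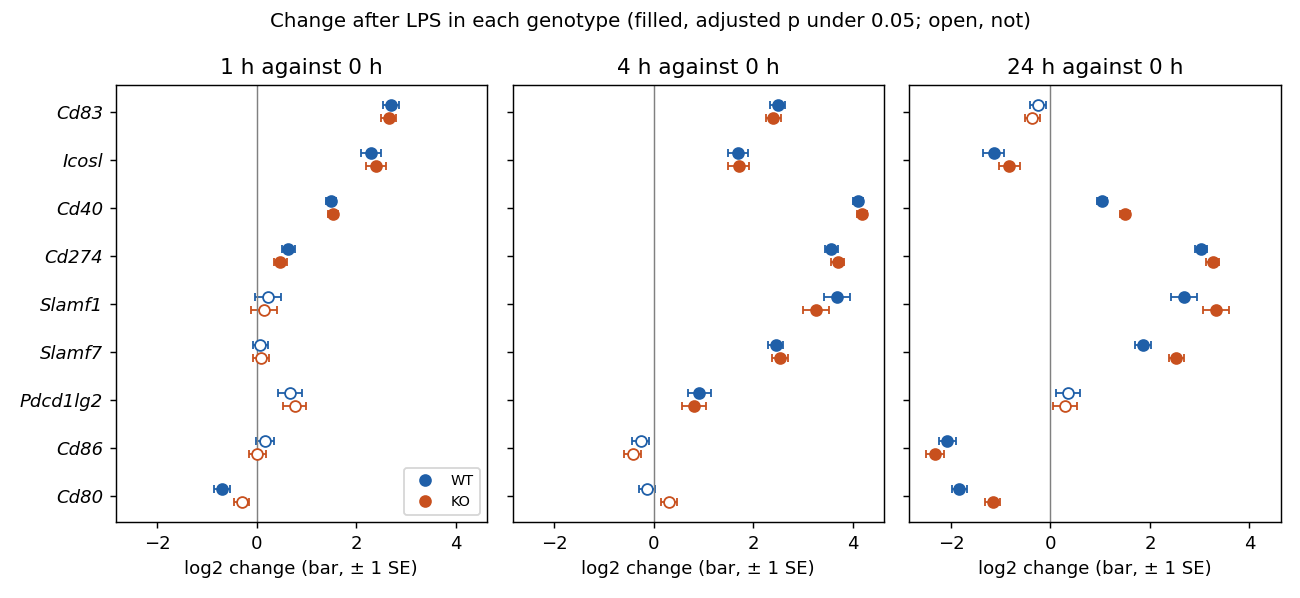
Log2 change from 0 h of each member at 1, 4 and 24 h of LPS (horizontal axis), with bars of 1 SE from the fit, WT in blue and KO in orange, filled where the adjusted p was below 0.05. At 4 h, 7 of 9 members were called higher in both genotypes, and at 24 h Cd86 and Cd80 stood at -2.07 and -1.83 in WT cells.

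Of the ligands of CD28, Cd86 fell late and by a similar size in both genotypes. In WT cells it read 13.37 and 12.89 before LPS, 13.55 and 13.05 after 1 h, 12.96 and 12.78 after 4 h and 10.98 and 11.13 after 24 h, where the first value of each pair is replicate 1. The KO values were 13.67 and 13.67 before LPS, 13.59 and 13.77 after 1 h, 13.28 and 13.22 after 4 h and 11.24 and 11.45 after 24 h. All 4 values at 24 h lay below all 12 earlier ones. From 0 to 24 h Cd86 fell by 2.07 in WT cells (log2, SE 0.17, 4.20-fold, adjusted p = 5.45e-07) and by 2.32 in KO cells (SE 0.17, 5.01-fold, adjusted p = 1.95e-07). The changes at 1 h (0.17 in WT, 0.01 in KO) and at 4 h (-0.26 in WT, -0.42 labelled KO) did not pass the test, although the last was called with a dye term (adjusted p = 0.0345) and without either array of 1 h (adjusted p = 0.0468 for both).

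Cd80, the other ligand of CD28, was measured by 2 probes to the same RefSeq transcript that moved in opposite directions from 0 h in WT cells and at 1 and 24 h in KO cells, so its course is uncertain. The brighter probe, which stands for the gene in all counts, read 11.72 and 11.66 in WT cells before LPS, then 11.04 and 10.93 (1 h), 11.65 and 11.45 (4 h) and 9.95 and 9.76 (24 h). In KO cells the values were 11.33 and 11.10, 10.95 and 10.87, 11.25 and 11.79, and 10.10 and 10.00 at these times. On this probe Cd80 was lowest at 24 h in both genotypes, with a fall of 1.83 in WT cells (SE 0.15, adjusted p = 5.98e-07) and of 1.16 in KO cells (SE 0.15, adjusted p = 4.59e-05). The fall at 1 h was called in WT cells (-0.70, SE 0.15, adjusted p = 0.0104) and not in KO cells (-0.30, adjusted p = 0.345). The WT call was lost without any 1 of the 4 arrays of 0 and 1 h (-0.76 to -0.64, adjusted p from 0.0538 to 0.109), and a KO rise at 4 h was called without replicate 1 at 4 h (0.57, adjusted p = 0.0053).

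The dimmer Cd80 probe, also well above background in all 16 channels, read 7.66 and 7.76 in unstimulated WT cells, 8.72 and 8.45 after 1 h, 11.46 and 11.22 after 4 h and 9.11 and 9.12 after 24 h. KO cells gave 8.25 and 8.17, 8.83 and 8.97, 11.83 and 11.70, and 9.54 and 9.13. Its 4 values at 4 h lay above all others. In WT cells it rose from its unstimulated level by 0.88 after 1 h, 3.63 after 4 h and 1.40 after 24 h (SE 0.14; adjusted p = 0.000967, 2.17e-10 and 2.97e-06) and by 0.69, 3.55 and 1.12 in KO cells (adjusted p = 0.00723, 2.85e-10 and 2.62e-05). From 4 to 24 h both probes fell, the dimmer by 2.23 in WT and 2.43 in KO cells (log2 -2.23 and -2.43, adjusted p = 5.41e-08 and 3.04e-08) and the brighter by 1.70 and 1.47 (log2 -1.70 and -1.47, adjusted p = 1.47e-06 and 5.24e-06). With the mean of both probes, the changes at 24 h were -0.21 in WT cells (adjusted p = 0.227) and -0.02 in KO cells (adjusted p = 0.937), so that the calls of Cd80 as lower at 24 h were lost. The sequences of the probes are not used here, and which of them follows the Cd80 mRNA was not tested.

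**Figure D3:**
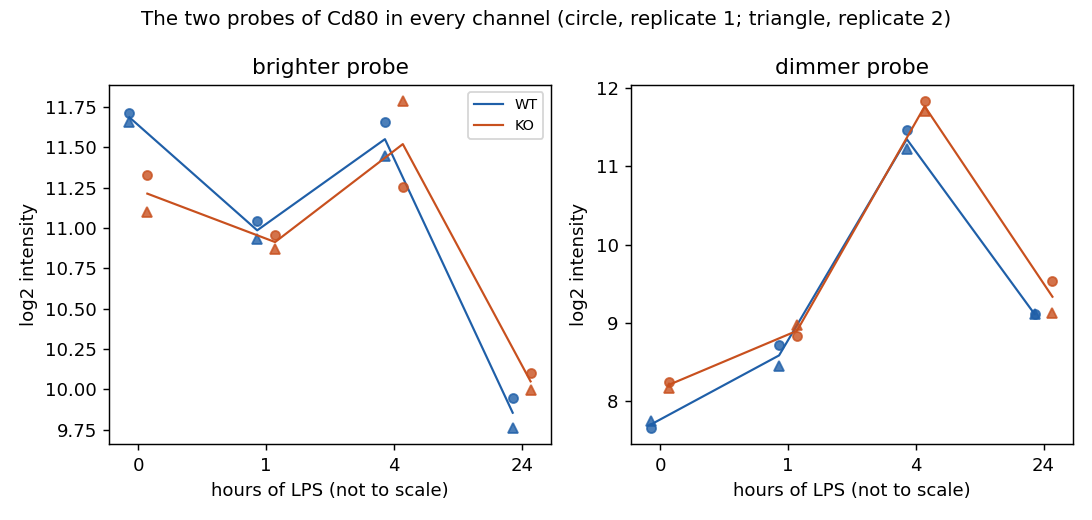
Normalized log2 intensity (vertical axis) of the 2 Cd80 probes at 0, 1, 4 and 24 h of LPS (horizontal axis, not to scale), 1 point per channel, with lines through the means of WT and KO. The brighter probe was lowest at 24 h and the dimmer one highest at 4 h, in both genotypes.

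Icosl, the ligand of ICOS, rose early and then fell below its starting level. In WT cells it read 10.59 and 11.13 before LPS, then 13.13 and 13.20 (1 h), 12.47 and 12.66 (4 h) and 9.50 and 9.93 (24 h). The KO values were 10.92 and 10.93, 13.44 and 13.21, 12.84 and 12.43, and 10.29 and 9.92. No value at 1 or 4 h overlapped with those at 0 or 24 h. The rise at 1 h was 2.30 in WT cells (SE 0.20, 4.93-fold, adjusted p = 5.65e-06) and 2.40 in KO cells (SE 0.20, 5.27-fold, adjusted p = 4.83e-06). At 4 h it was 3.25-fold above 0 h in WT cells (log2 1.70) and 3.27-fold in those labelled KO (log2 1.71). At 24 h Icosl was 1.14 lower than at 0 h in WT cells (log2 -1.14, SE 0.20, adjusted p = 0.000565) and 0.82 lower in KO cells (log2 -0.82, SE 0.20, adjusted p = 0.00664). The call in KO cells was lost without replicate 2 at 24 h (-0.64, adjusted p = 0.0617).

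Cd83 shared the early course, with r = 0.96 to Icosl over the 16 channels, which share arrays and time points. In WT cells it read 13.45 and 13.70 unstimulated, 16.31 and 16.25 after 1 h, 16.01 and 16.12 after 4 h and 13.31 and 13.35 after 24 h. In KO cells these were 13.61 and 13.97, 16.30 and 16.59, 15.99 and 16.41, and 13.35 and 13.50. It was high in all 8 channels of 1 and 4 h. It rose 6.51-fold at 1 h in WT cells (log2 2.70, SE 0.16, adjusted p = 7.15e-08) and 6.30-fold in KO cells (log2 2.66, SE 0.16, adjusted p = 1.07e-07). At 4 h the rise was still 5.63-fold in WT cells (log2 2.49) and 5.30-fold in those labelled KO (log2 2.41). At 24 h it differed from 0 h by -0.25 in WT cells and -0.36 in KO cells, neither called, although the KO change was called with the replicate number as a block (adjusted p = 0.037) and without replicate 1 at 0 h (-0.54, adjusted p = 0.0445).

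Icosl, Cd83, Cd86 and Cd40 are also expressed by B cells. The summed level of the 12 B cell markers, a log2 of their added intensities, ran from 16.2 to 16.6 in WT cells at 0 h, from 16.1 to 16.5 at 1 h, from 15.3 to 15.6 at 4 h and from 15.5 to 15.6 at 24 h. In KO cells it ran from 16.4 to 16.9, from 16.8 to 16.9, from 15.0 to 15.5 and from 15.6 to 15.8. At 4 h, 3 of the 12 were called higher and 5 lower than at 0 h in WT cells, and 2 and 7 in those labelled KO, where 15.5% and 19.2% of all features were called in WT and 16.2% and 19.7% in those labelled KO. At 24 h 4 were called lower in WT and 3 in KO cells, beside 16.8% and 15.9%. The summed level of the 9 macrophage markers also fell, from between 19.1 and 19.3 at 0 h to between 17.95 and 18.05 at 24 h in WT cells and from 18.8 to between 17.3 and 17.5 in KO cells. At 24 h 2 were called higher and 6 lower in WT cells, beside 13.5% and 16.8%, and 1 and 6 in KO cells, beside 12.8% and 15.9%. The brightest probes weigh most in such a sum, among them Lyz2 (up to 18.17), which read lower in KO than in WT on all 8 arrays. The part of these marker changes in the late falls of Cd86, Cd80 and Icosl was not tested.

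Cd40, the receptor for CD40 ligand, had the largest increase of any member. In WT cells it read 11.35 and 11.34 before LPS, then 12.85 and 12.80 (1 h), 15.40 and 15.51 (4 h) and 12.33 and 12.42 (24 h). KO cells read 11.21 and 11.27, 12.78 and 12.78, 15.50 and 15.35, and 12.84 and 12.62. Every LPS channel lay above every unstimulated one. The rise at 4 h was 17.3-fold in WT cells (log2 4.11, SE 0.10, adjusted p = 5.23e-12) and 18.2-fold in those labelled KO (log2 4.19, SE 0.10, adjusted p = 5.69e-12). At 1 h it was 2.80-fold and 2.91-fold, and at 24 h 2.05-fold in WT cells (log2 1.03, adjusted p = 2.50e-06) and 2.81-fold in KO cells (log2 1.49, adjusted p = 7.66e-08).

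Of 9 measured genes that act downstream of CD40, 6 were called higher at 1 h in WT cells and 7 in KO cells, beside 3.35% and 3.08% of all features. At 4 h, where 15.5% and 16.2% were called higher, 7 were called higher and 1 lower in both genotypes, with medians of 0.90 in WT cells and 0.78 in those labelled KO. The largest changes at 4 h were those of Traf1, an adaptor of TNF receptors, which rose by 4.35 in WT cells (SE 0.17, adjusted p = 1.97e-10) and by 4.44 in those labelled KO, of Tnfaip3 (A20), an inhibitor of NF-kB signalling, which rose by 4.08 and 4.02, and of Nfkb2, the NF-kB subunit of the pathway that CD40 uses, which rose by 2.93 and 3.35. Map3k14, the kinase that starts this pathway, was the gene called lower (-1.07 in WT, adjusted p = 3.63e-06). At 24 h, 5 were called higher and 3 lower in WT cells, beside 13.5% and 16.8% of all features, and 4 and 1 in KO cells, beside 12.8% and 15.9%. Tnfaip3 had already risen by 4.01 at 1 h in WT cells and Traf1 by 2.42, where Cd40 had risen by 1.48.

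The gene of PD-L1, Cd274, rose strongly at 4 h and stayed high. Its WT values were 11.51 and 11.42 unstimulated, 12.15 and 12.05 after 1 h, 15.15 and 14.94 after 4 h and 14.60 and 14.38 after 24 h. In KO cells the levels were 11.56 and 11.47, 11.88 and 12.09, 15.26 and 15.17, and 14.63 and 14.92. The 8 values of 4 and 24 h ran from 14.38 to 15.26 and the 8 of 0 and 1 h from 11.42 to 12.15, with no overlap. The rise at 4 h was 11.9-fold in WT cells (log2 3.58, SE 0.13, adjusted p = 1.21e-10) and 13.0-fold in those labelled KO (log2 3.70, SE 0.13, adjusted p = 9.17e-11). At 24 h it was 8.14-fold (log2 3.02, adjusted p = 9.20e-10) and 9.58-fold (log2 3.26, adjusted p = 5.80e-10).

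A small rise of Cd274 was called at 1 h, 0.64 in WT cells (SE 0.13, adjusted p = 0.00556) and 0.47 in KO cells (SE 0.13, adjusted p = 0.0374). Without quantile normalization between arrays it was 0.52 (adjusted p = 0.0522) and 0.37 (adjusted p = 0.213), not called. The rise in KO cells was also lost without any 1 of the 4 arrays of 0 and 1 h (0.37 to 0.58, adjusted p from 0.0685 to 0.308), and that in WT cells without replicate 2 at 0 h (adjusted p = 0.0706) or replicate 1 at 1 h (adjusted p = 0.0569).

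Pdcd1lg2, which encodes PD-L2 and lies on chromosome 19 like Cd274, changed little. WT cells gave 8.18 and 8.46 before LPS, then 8.63 and 9.35 (1 h), 9.06 and 9.42 (4 h) and 8.70 and 8.64 (24 h). The KO levels were 8.26 and 8.59, 9.04 and 9.34, 8.88 and 9.61, and 8.67 and 8.77. Replicate 2 was higher than replicate 1 in 7 of these 8 pairs. The rise was called at 4 h only, 1.90-fold in WT cells (log2 0.92, SE 0.24, adjusted p = 0.00732) and 1.76-fold in those labelled KO (log2 0.82, SE 0.24, adjusted p = 0.0151). With the replicate number as a block, the rises at 1 h of 0.67 in WT and 0.76 in KO cells were called too (adjusted p = 0.0207 and 0.0113, against 0.123 and 0.0787 without it), as were the falls from 4 to 24 h of 0.57 and 0.52 (log2 -0.57 and -0.52, adjusted p = 0.0165 and 0.0268). The calls at 4 h were lost without quantile normalization (0.44 and 0.34, adjusted p = 0.193 and 0.338) and without replicate 1 at 0 h (0.78 and 0.65, adjusted p = 0.0754 and 0.138), and in those labelled KO without replicate 2 at 4 h (0.45, adjusted p = 0.202) and with the scanner's processed signals (0.88, adjusted p = 0.0743). A rise at 1 h was called in WT cells without replicate 1 at 1 h (1.03, adjusted p = 0.036) and in KO cells without either array of 4 h (adjusted p = 0.0413 for both), and falls from 4 to 24 h were called without replicate 1 at 4 h (-0.75 and -0.88, adjusted p = 0.0438 and 0.0192).

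Slamf1 and Slamf7, both on chromosome 1, did not change at 1 h by the test and were high from 4 h on. Slamf1 read 6.68 and 6.63 in unstimulated WT cells, 6.87 and 6.91 after 1 h, 10.45 and 10.23 after 4 h and 9.54 and 9.12 after 24 h. KO cells had 6.84 and 6.90, 6.99 and 7.03, 9.63 and 10.67, and 9.97 and 10.43. The values at 0 and 1 h were low: Cd276, not well above background in any channel, read up to 6.56 in WT cells at 0 h. The folds of Slamf1 thus start close to the floor. Slamf1 rose 12.9-fold at 4 h in WT cells (log2 3.68, SE 0.26, adjusted p = 6.79e-08) and 9.68-fold in those labelled KO (log2 3.28, SE 0.26, adjusted p = 2.18e-07). At 24 h it was 6.40-fold above 0 h in WT cells (log2 2.68, adjusted p = 2.48e-06) and 10.0-fold in KO cells (log2 3.33, adjusted p = 3.27e-07). From 4 to 24 h it fell by 1.01 in WT cells (SE 0.26, adjusted p = 0.0088) and differed by 0.05 in KO cells, whose 2 values at 4 h lay far apart.

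Slamf7 read 9.11 and 9.53 in WT cells before LPS, then 9.18 and 9.61 (1 h), 11.66 and 11.89 (4 h) and 11.28 and 11.09 (24 h). The values of KO cells were 9.22 and 9.23, 9.23 and 9.39, 11.71 and 11.82, and 11.80 and 11.71. It rose 5.48-fold at 4 h in WT cells (log2 2.45, SE 0.16, adjusted p = 2.34e-08) and 5.82-fold in those labelled KO (log2 2.54, SE 0.16, adjusted p = 1.74e-08). At 24 h it was 3.64-fold above 0 h in WT cells (log2 1.86, adjusted p = 5.49e-07) and 5.78-fold in KO cells (log2 2.53, adjusted p = 3.13e-08). From 4 to 24 h it fell by 0.59 in WT cells (SE 0.16, adjusted p = 0.00979) and by 0.01 in KO cells, which was not called. The WT falls from 4 to 24 h of Slamf1, Slamf7 and Cd274 were -0.51, -0.17 and -0.18 without quantile normalization and not called (adjusted p = 0.262, 0.628 and 0.531). Leaving out replicate 2 at 24 h ended the calls of Slamf1 (-0.80, adjusted p = 0.0875) and Slamf7 (-0.49, adjusted p = 0.109), leaving out replicate 2 at 4 h that of Slamf7 (-0.48, adjusted p = 0.105), as did the scanner's processed signals (-0.59, adjusted p = 0.0682), and leaving out replicate 1 at 4 h that of Cd274 (-0.45, adjusted p = 0.0595). In KO cells Cd274 fell by 0.44 from 4 to 24 h (SE 0.13, adjusted p = 0.0164), a call lost without quantile normalization (-0.12), without replicate 1 at 24 h (-0.30) and without replicate 1 at 4 h (-0.40).

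Markers of other cells moved at the times when Cd274, Slamf1 and Slamf7 were high. The 8 mast cell markers, all well above background in the 16 channels, had a summed level of 13.1 to 13.6 in WT cells at 0 h and 15.1 to 15.5 at 4 h, and of 13.5 to 14.0 and 15.8 to 15.9 in KO cells. At 4 h, 1 of the 8 was called higher in WT cells and 2 in those labelled KO, and Hdc, the histidine decarboxylase gene, reached 15.49 alone. At 24 h, 6 of the 8 were called lower than at 0 h and 1 higher in both genotypes (medians -1.59 in WT, -1.38 in KO), and from 4 to 24 h 8 of 8 were called lower in both. Of all features, 15.5% were called higher at 4 h in WT and 16.2% in those labelled KO, at 24 h 13.5% higher and 16.8% lower in WT and 12.8% and 15.9% in KO cells, and from 4 to 24 h 14.6% and 15.1% lower. The 7 neutrophil markers ran from 11.8 to 12.3 up to 4 h and from 14.53 to 16.01 at 24 h, when 2 were called higher and 1 lower in each genotype, with S100a8 alone reaching 15.97. S100a8, Elane and Camp were above background in all 16 channels, Ltf in 1, and S100a9, Mpo and Retnlg in 0. The 9 dendritic cell markers ran from 15.8 to 16.2 up to 4 h and from 15.1 to 15.2 at 24 h, with Siglech alone between 14.87 and 15.91 over the 16 channels. The 9 mesothelial and fibroblast markers, of which 2 to 6 were above background in a channel and Lrrn4 and Pdgfra in none, ran from 9.82 to 10.07 at 0 h and from 11.01 to 11.41 at 24 h, when 1 was called higher in each genotype, and Dcn reached 10.96. Their part in the levels of the members was not tested.

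The order of the 4 times therefore differed among the members. In WT cells the highest mean was at 1 h for Cd83, Icosl and Cd86, at 4 h for Cd40, Cd274, Slamf1, Slamf7 and Pdcd1lg2, and at 0 h for the brighter Cd80 probe. Neighbours in this order overlapped for Cd86 at 0, 1 and 4 h, for Pdcd1lg2 at 1, 4 and 24 h and for Slamf7 at 0 and 1 h. Over the 16 channels, Slamf1, Slamf7 and Cd274 had r of 0.98 with each other, Cd80 (brighter probe) and Cd86 0.79, and Cd86 and Slamf7 -0.62. These correlations describe 8 arrays at 4 times and carry no test.

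No member was called at 0, 1, 4 or 24 h by limma on the log2 KO/WT ratios, where 0%, 0%, 0.00812% and 0.0244% of all features were called at these times. At an unadjusted p below 0.05 there were 2, 1, 1 and 3 of 9 members, beside 5.75%, 5.46%, 4.31% and 3.42% of all features. The methods' t-test also called none after adjustment, and 1, 1, 0 and 1 members before it, beside 4.62%, 4.75%, 3.07% and 4.1% of all features, of which it called 0 after adjustment. For the mean ratio over the 4 times none was called, beside 0.563% of all features, with 2 members at an unadjusted p below 0.05, beside 10.7%. The median ratio of the members was 0.06, 0.12, -0.0003 and 0.29 (log2) at 0, 1, 4 and 24 h, where that of all features was between -0.004 and 0.004.

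**Figure D4:**
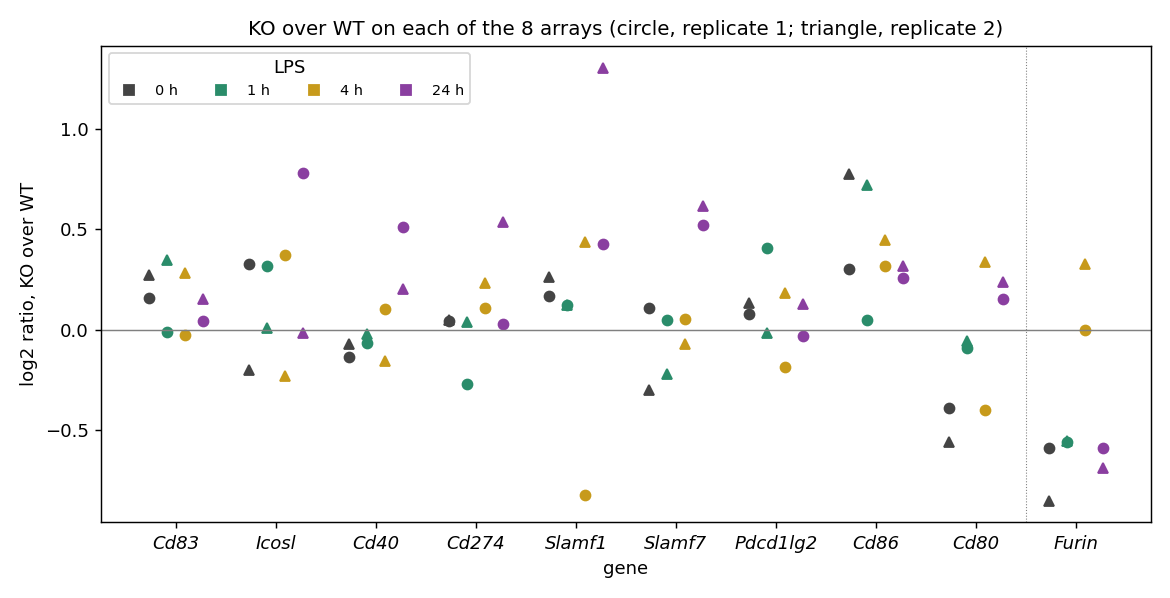
Log2 ratio of KO over WT on each of the 8 arrays (vertical axis) for the 9 members and Furin (horizontal axis), coloured by time of LPS. Cd86 was above 0 on 8 of 8 arrays, Slamf7 was highest on both 24 h arrays and Slamf1 on 1 of them, and Furin was below 0 except on the 4 h arrays.

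Cd86 was the member whose ratio had one sign throughout. Its KO/WT ratios (log2) were 0.30 and 0.78 without LPS, after 1 h 0.05 and 0.72, on the 4 h arrays labelled KO 0.32 and 0.45, and after 24 h 0.26 and 0.32. It was above 0 on 8 of 8 arrays, and replicate 2 was the higher at each of the 4 times. The mean was 0.40 (SE 0.08, 95% interval 0.21 to 0.59, 1.32-fold), with an adjusted p of 0.0832. With the replicate number as a block the adjusted p was 0.00254, in a fit that called 6.01% of all features, and without the 4 h arrays it was 0.00624 in the same kind of fit, with a mean of 0.40. The median log2 ratio of the 12 B cell markers was 0.19, 0.43, -0.17 and 0.13 at 0, 1, 4 and 24 h and that of the 8 mast cell markers 0.39, 0.33, 0.47 and 0.47, with none of either list called. For the mean over the 4 times, 2 of 9 macrophage and 1 of 9 dendritic cell markers were called lower in KO cells, beside 0.563% of all features called in either direction, and at 24 h 1 of 9 macrophage markers, beside 0.0244%. Lyz2, which carries the Cre, is 1 of the 9 macrophage markers and was called lower in both comparisons. The part of these markers in the ratio of Cd86 was not tested.

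At 24 h the ratios of Slamf7 were 0.52 and 0.62, those of Slamf1 0.43 and 1.31 and those of Cd40 0.51 and 0.20. For these 3 genes, and for Cd80 (brighter probe), Cd83, Cd86 and Cd274, thus for 7 of 9 members, both KO values lay above both WT values, as for 14.7% of all features. The means were 0.57 for Slamf7 (SE 0.12, 1.49-fold, 95% interval 0.30 to 0.85, adjusted p = 0.345), 0.87 for Slamf1 (SE 0.27, 1.82-fold, adjusted p = 1.00) and 0.36 for Cd40 (SE 0.11, 1.28-fold, adjusted p = 0.934). With the block, Slamf7 was called (adjusted p = 0.0301), in a fit that called 0.585% of all features, and the other 2 were not. At 0, 1 and 4 h the ratios of Slamf7 ran from -0.30 to 0.11.

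Whether the LPS response itself differed between the genotypes was tested as the change of the ratio from 0 h. No member was called at 1, 4 or 24 h, where 0%, 0% and 0% of all features were called. At 24 h 3 members had an unadjusted p below 0.05, beside 3.33% of all features: Slamf7 with 0.67 (SE 0.17, 95% interval 0.28 to 1.06, adjusted p = 0.824), the brighter Cd80 probe with 0.67 (SE 0.22) and Cd40 with 0.46 (SE 0.15). At 1 and 4 h there were 0, beside 1.4% and 2.9%. For the other 6 members at 24 h the difference ran from -0.25 for Cd86 to 0.65 for Slamf1. The interval of Slamf1 was the widest, from -0.24 to 1.54.

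Cd80 again depended on the probe. The brighter probe gave ratios of -0.39 and -0.56 (0 h), -0.09 and -0.06 (1 h), -0.40 and 0.34 (4 h) and 0.15 and 0.24 (24 h). Those of the dimmer probe were 0.59 and 0.42, 0.11 and 0.52, 0.36 and 0.48, and 0.43 and 0.01, above 0 on 8 of 8 arrays. The mean of the dimmer probe over the times was 0.36 (SE 0.07, adjusted p = 0.0584, with the block 0.00667), whereas the brighter probe gave -0.10 (SE 0.08, adjusted p = 0.80).

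The ratios of the remaining members lay on both sides of 0. Cd83 was above 0 on 6 of 8 arrays, from -0.03 to 0.35, with a mean of 0.15 (SE 0.06, adjusted p = 0.38). Icosl was above 0 on 5 arrays, from -0.23 to 0.78, and the 3 others were all of replicate 2. Cd274 ran from -0.27 to 0.54 and Pdcd1lg2 from -0.19 to 0.41. On the 4 h arrays Slamf1 was at -0.82 and 0.44, the widest pair of any member and time.

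Other genes of the same pathways were taken from 6 lists of related molecules. None of their genes was called between KO and WT at any time, where at most 0.0244% of all features were called. Among 8 co-stimulatory molecules of the TNF family, 5 were called higher and 1 lower at 4 h in WT cells, and 6 and 1 in those labelled KO. The medians were 0.87 and 0.72. Of all features 15.5% were called higher and 19.2% lower in WT at that time, and 16.2% and 19.7% in those labelled KO. The 8 include Tnfrsf14, a receptor and not a ligand, called higher only in those labelled KO (0.31, adjusted p = 0.0309, against 0.22 and 0.133 in WT). Tnfsf18, the gene called lower, was well above background in 8 of 16 channels. Of those called higher, Tnfsf4 was so in 11 and Tnfsf8 in 14. Tnfsf15 rose by 6.44 and 6.28 and Tnfsf9, the ligand of 4-1BB, by 6.06 and 5.42, and Cd70, the ligand of CD27, by 2.92 and 3.13 (WT, then labelled KO). Tnfsf9 had already risen by 7.51 in WT cells at 1 h (SE 0.19, adjusted p = 6.61e-11). Of the 3, Tnfsf15 and Cd70 were highest at 4 h, like Cd40 and Cd274, and Tnfsf9 at 1 h, like Icosl and Cd83.

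Of 7 other measured B7 and butyrophilin ligands, 1 was called higher and 3 lower in WT cells at 4 h, as at 24 h (medians -0.24 and -0.14), beside 15.5% higher and 19.2% lower at 4 h and 13.5% and 16.8% at 24 h among all features. In KO cells 1 was called higher and 2 lower at both times, beside 16.2% and 19.7% at 4 h (labelled KO) and 12.8% and 15.9% at 24 h. Cd276, 1 of the 3 lower in WT cells, was not well above background in any channel. Vsir, which encodes the inhibitory ligand VISTA, fell by 3.61 at 4 h in WT cells (SE 0.24, adjusted p = 4.30e-08) and by a like amount in those labelled KO (-3.67). Vsig4, a complement receptor of resident macrophages that also inhibits T cells, changed by -2.61 and -2.77 at 4 h and by -8.04 and -8.55 at 24 h (WT, then KO). Btn1a1 rose by 1.90 and 2.23 at 4 h. Vsir and Vsig4 thus moved opposite to Cd274.

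Of 11 other checkpoint molecules of antigen presenting cells, 7 were called higher and 2 lower in WT cells at 4 h, and 6 and 3 in those labelled KO, with medians of 0.83 and 0.89. The shares of all features were 15.5% higher and 19.2% lower in WT, and 16.2% and 19.7% in those labelled KO. Cd200, an inhibitory ligand, rose by 2.83 and 2.34, Lgals9 (galectin-9) by 2.21 and 2.24, and Cd200r1, the receptor of CD200, changed by -2.31 and -2.58 (WT, then labelled KO). Of 10 other SLAM family receptors and adaptors, 2 were called higher and 4 lower in WT cells at 4 h, and 2 and 4 at 24 h (medians -0.15 and -0.35), while among all features 15.5% and 19.2% were called at 4 h and 13.5% and 16.8% at 24 h. In KO cells 1 was called higher and 4 lower at 4 h (labelled KO), beside 16.2% and 19.7%. At 24 h 3 were called higher and 3 lower in KO cells, beside 12.8% and 15.9%. Sh2d1b1, 1 of those lower at 4 h in WT cells, was well above background in 2 of 16 channels. Cd84 changed by -2.59 at 24 h in WT cells and by -2.33 in KO cells, while Slamf9 rose by 2.33 and 2.56 and Slamf6 by 1.53 and 1.49. Cd84 thus moved opposite to Slamf1 and Slamf7, and Slamf9 and Slamf6 in the same direction at 24 h.

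Binding partners of these molecules that T cells carry, which are receptors and the ligand of CD40 (Cd40lg), were measured too. Of 9, 3 were called higher and 1 lower at 4 h in WT cells (median 0.46), beside 15.5% and 19.2% of all features. In those labelled KO 2 were called higher and 1 lower (median 0.11), beside 16.2% and 19.7%. Cd40lg, Cd226 and Tigit were not well above background in any of the 16 channels. Cd28 changed by -1.46 at 4 h in WT cells and by -1.84 in those labelled KO, Lag3 rose by 1.40 and 1.36, and Btla rose by 1.28 and 0.84. The summed level of the 12 T and NK cell markers ran from 13.9 to 14.6 in WT cells at 0 h and from 13.1 to 13.6 at 4 h, and their part in these values was not tested.

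For each member, the 2 named genes with the most similar course over the 16 channels are given as a description. They were Ptpn2 and Rbbp8 for Cd40 (r = 0.99 and 0.98), Ddx5 and Nfkbie for Cd83 (both 0.99), Gpr132 and Nfkbid for Icosl (0.99 and 0.98), F5 and Bhlhe40 for Cd86 (both 0.98) and Gprc5c and Cds1 for the brighter Cd80 probe (both 0.96). For Cd274 they were AA467197 and Slc7a2 (both 0.99), for Slamf1 Slc7a3 and Gm7609 (both 0.99), for Slamf7 Gm7609 and AW011738 (both 0.99) and for Pdcd1lg2 Cxcr5 and Ehf (0.95 and 0.92). Slamf1 and Slamf7 had Gm7609 in common.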

How the data were processed

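Each array was scanned with 2 dyes, and the deposited scanner files hold the intensity of every spot as the authors extracted it with Agilent Feature Extraction 10.7.3, as the median of its pixels (no mean per spot is given there). In addition, the authors supplied a table of log2 ratios, normalized with limma by loess and quantile methods. Its columns had medians from 0.003 to 0.0085. Over gene spots bright in Cy3 only, they had r from 0.929 to 0.979 with the ratios of the scanner's processed signals. The authors' table served as an alternative. Intensities were corrected with normexp (offset 50), normalized by loess within and quantiles between arrays, and averaged per probe in limma 3.58.1 (R 4.3.3). Probes were named through RefSeq accessions (27509 of 55681 gene probes), the brightest probe stood for a gene, and 36947 genes and transcripts with a mean log2 of at least 6 were tested with lmFit and eBayes on the KO/WT ratios (1 coefficient a time). Changes after LPS were tested by separate-channel analysis on 16 channels (36927 features, within-spot correlation 0.113). The Benjamini-Hochberg threshold was 0.05. All arrays were 1 slide and 1 scan. The labels' growth protocol names 4 h of stimulation for all samples, and times were taken from the titles. Replicates were labelled biological. Differences between replicates 1 and 2 correlated between times with r from 0.475 to 0.679 for the ratio, 0.339 to 0.565 for WT and 0.214 to 0.336 for KO levels. As the replicate number is also the dye orientation, these correlations cannot show whether the numbers pair the samples. Precision is limited by 2 arrays a time. The members and lists were chosen with earlier results of these data known. Named were all members, Furin, Lyz2, up to 3 called genes per list with the largest change at a time, and the 2 genes most like each member. Map3k14, Tnfrsf14, undetected or partly detected genes of the lists and named markers of other cells were added after their values were seen. The tests were checked on simulated data. Alternatives were the replicate block, a dye term, no background subtraction, processed signals, Aquantile, loess only, the mean of probes, no filter, only probes above background, the authors' ratios, the methods' t-test and leaving out each array. Promoters were searched in Python, with the shorter forms of 2 motifs chosen after the longer ones had been searched, and no positions from the array annotation are given.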

Additional observations from a re-analysis of the deposited data

How the results depend on the processing

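Limits. Each time had 2 arrays, the replicate number is also the dye orientation, and Furin did not read lower in the RNA labelled KO at 4 h. Cultures without LPS were measured at 0 h only, so changes after LPS also hold those of time in culture. The arrays measure mRNA and not surface protein, and only Cd80 had a second probe.

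Between KO and WT, 735 of 738 values of the members kept their side of the threshold over the alternatives, and all 576 did when an array was left out. None of these was called and changed sign, and of the uncalled 23 and 35 changed sign. For LPS, 693 of 720 values kept their side and, where called, their direction, and 547 of 576 when an array was left out, where 20 lost and 9 gained a call. With the replicate block, 1 member was called at 24 h and 1 for the mean over the times (also 1 without the 4 h arrays, an alternative chosen after seeing the data), against none. The block changed no call other than these of Slamf7 and Cd86, those of Pdcd1lg2 and that of Cd83 given above, and that of the dimmer Cd80 probe. With loess only, 5 members were called from 4 to 24 h in WT cells, against 8. The number called at 1 h in WT cells was 3 to 5 when an array was left out, lowest without replicate 2 at 0 h. With the mean of its probes, Cd80 in WT cells changed by 0.0888 after 1 h, 1.75 after 4 h and -0.21 after 24 h (adjusted p = 0.227), and in KO cells by 1.93 at 4 h (called) and -0.02 at 24 h (adjusted p = 0.937), which ends both calls at 24 h. With processed signals, Slamf7 from 4 to 24 h in WT cells and Pdcd1lg2 at 4 h in those labelled KO were not called. With the dimmer probe, chosen after seeing the data, it changed by 0.88, 3.63 and 1.40 in WT cells at 1, 4 and 24 h, and by 0.69 and 1.12 in KO cells at 1 and 24 h, all against the brighter probe's direction. The WT call at 1 h of the brighter probe was lost without any 1 of the 4 arrays of 0 and 1 h. The methods' t-test called no member after adjustment, and 1, 1, 0 and 1 members at 0, 1, 4 and 24 h before it. The causes were not tested.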
